A study of Drosophila melanogaster with 18 samples.

Results

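Ribosome-bound mRNA of fru P1-expressing cells was compared with total mRNA in male pupae at 48 hr after puparium formation (APF). The 10 libraries compared were the male TRAP replicates 1, 2, 3, 5 and 6 and the male total mRNA replicates of the same numbers, out of 18 libraries in the series. TRAP (translating ribosome affinity purification) pulls down a GFP-tagged ribosomal protein, RpL10A, and the mRNA bound to it. The tag was made under the control of fru P1-Gal4, so TRAP samples the cells in which that driver is active, and total mRNA samples every cell of the lysate from which the same-numbered TRAP fraction was taken.

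The fru locus has several promoters, and transcripts from P1 are spliced differently in the sexes, giving male-specific zinc-finger proteins of the BTB family. The neurons that transcribe P1 are known for directing courtship behavior, and in the pupal stage sampled here they are growing axons and dendrites and building synapses. Genes higher in TRAP than in total mRNA are those whose mRNA makes up a larger share of the ribosome-bound pool of driver-expressing cells than of the whole animal.

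Flies of both groups were alike in genotype: they carried fru P1-Gal4 over a wild-type chromosome, and on another autosome a P element with UAS-GFP::RpL10A opposite a P element with UAS-Gal4, both marked with w+mC, in a w mutant background. Each sample was a pool of whole, sex-sorted male pupae aged to 48 hr APF. The driver labels any cell in which fru P1-Gal4 is active, whether or not it is a neuron, and the libraries used here include no pulldown from animals that lack the driver. Unspecific binding of RNA to the beads therefore cannot be told apart from tagged ribosomes. In these bulk samples, fewer cells of a type and less RNA per cell cannot be told apart either.

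The deposited tables hold read counts per exon record, and library totals spanned 28706315 to 49642508 for male TRAP, and 30858349 to 58960302 for male total mRNA. Counts were summed per gene over records that do not overlap, and levels are given as normalised CPM, which are counts scaled to a common library total with TMM factors. Pearson correlations of log2 CPM across 11537 genes were 0.935 to 0.993 among male TRAP libraries and 0.990 to 0.997 among male total mRNA libraries. Male TRAP replicate 1 stood apart. It correlated with the total mRNA libraries at 0.944 to 0.958, while the other 4 TRAP libraries did so at 0.848 to 0.932. Of the 62 genes at least 8-fold higher in TRAP, 54 had their lowest TRAP level in replicate 1, and of the 667 genes at least 2-fold lower in TRAP, 584 had their highest TRAP level there. What sets this library apart was not tested. Without lysate 1, the number of called members changed in 23 of the 43 gene lists used below, and the counts without it are given beside those that moved most.

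The locus of the driver came first. fru, which lies at 3R:18414273-18545586 on the minus strand (build dm6), had 274, 429, 295, 322 and 503 normalised CPM in male TRAP, against 80.3, 74.5, 65.7, 71.3 and 88.9 in male total mRNA, where values by library are given here and below in the order of replicates 1, 2, 3, 5 and 6. Every TRAP library was above every total mRNA library. The log2 fold change was 2.23 (SE 0.13, adjusted p = 2e-06 in edgeR's quasi-likelihood test).

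The difference was uneven along the fru gene. Of its 19 non-overlapping records, the 18th from the 5′ end was the highest in TRAP, at 135.2 ± 27.3 CPM in TRAP and 21.8 ± 4.5 CPM in total mRNA (SD, n = 5 each), and records 3 and 10 had no TRAP reads. The second record, 3R:18513451-18515343, averaged 1.40 ± 0.66 CPM in TRAP and 0.0491 ± 0.040 CPM in total mRNA. It had 15, 64, 19, 24 and 57 reads in male TRAP, against 3, 1, 0, 1 and 4 reads in male total mRNA. The most 5′ record, 3R:18545113-18545586, had 15 reads over the TRAP libraries and 0 over the total mRNA libraries. Records 14 and 15 were nearly level, at 2.60 ± 0.29 CPM in TRAP and 2.69 ± 0.34 CPM in total mRNA for record 14, and at 4.84 ± 0.99 and 4.56 ± 0.40 CPM for record 15. Record 4 was low in both, at 0.415 ± 0.16 CPM in TRAP and 0.613 ± 0.26 CPM in total mRNA. Of the 11 records over 2 CPM in 60% of the libraries, 7 had every TRAP library above every total mRNA library, and the log2 ratio of the means had a median of 1.52 and a range of -0.05 to 3.71.

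**Figure D1:**
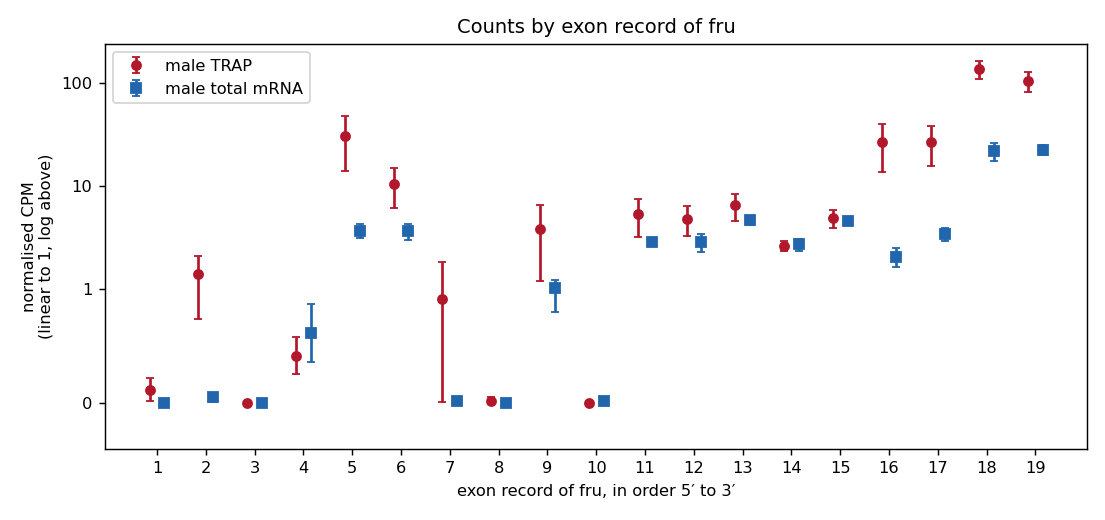
Normalised CPM (y axis, linear up to 1 and logarithmic above) of the 19 non-overlapping exon records of fru in order 5′ to 3′ (x axis), as mean and SD of the 5 male TRAP libraries (circles) and the 5 male total mRNA libraries (squares). Record 2 has 1.40 CPM in TRAP and 0.0491 CPM in total mRNA, records 14 and 15 are nearly level, and the records at the 3′ end are 4.66 to 13.1 times higher in TRAP.

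The 2 other loci carried by the transgenes differed little. RpL10Ab, the gene of the tagged ribosomal protein, had 1646, 1161, 1193, 1294 and 1041 CPM in male TRAP, against 1588, 1338, 1319, 1268 and 1172 CPM in male total mRNA. These groups overlapped, with a log2 fold change of -0.09 (SE 0.09, adjusted p = 0.41). Reads of the transgene and of the gene itself cannot be told apart in these tables. The eye-color gene w, the marker of the inserted elements, averaged 20.9 ± 3.8 CPM in male TRAP and 15.8 ± 0.83 CPM in male total mRNA, with a log2 fold change of 0.39 that passed the test.

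Of 11537 genes tested, 4140 (35.9%) were higher and 4420 (38.3%) were lower in male TRAP at a false discovery rate (FDR) under 0.05, and these shares are the background for each count below. A change of at least 2-fold was added as a rule of size, and it left 1520 genes (13.2%) higher and 667 (5.78%) lower. With library totals only in place of TMM, the 2-fold counts were 1257 and 1044, and the median log2 fold change of all genes moved to -0.14. Without lysate 1 they were 1707 and 1047. Every TRAP library was above every total mRNA library for 26.3% of the genes and below for 22.6%. The median log2 fold change of all genes was -0.03, and the range was -1.98 to 7.23, so the largest increases were far greater than the largest decreases.

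The lower calls moved with the position of reads along a gene. For 107 genes at least 2-fold lower that had enough reads in their end records, the median log2 ratio of TRAP over total mRNA was -1.83 at the first (5′) record and -0.66 at the last, and the last was above the first in 88.8%. For 678 genes at least 2-fold higher the medians were 1.6 and 1.47. The density of reads in the first over the last record was lower in TRAP than in the total mRNA of the same lysate in 4 of 5 lysates, with a log2 difference of -0.61 to 0.03. The part of this position effect in the fold changes was not tested.

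Neuronal markers were higher in male TRAP. The pan-neuronal RNA-binding protein gene elav had 278, 389, 336, 278 and 359 CPM in male TRAP, against 76.9, 72.3, 52.0, 64.5 and 84.1 CPM in male total mRNA, a log2 fold change of 2.23 (SE 0.13, adjusted p = 2e-06). All 5 neuronal markers (elav, nSyb, Syt1, brp and Syn) passed the test upward. Markers here and below were chosen with earlier results of these data known, so their direction is a description and no check of the label. The summed level of the 5 neuronal markers was 674 to 1056 CPM in TRAP and 237 to 297 CPM in total mRNA, so the ranges did not overlap.

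Genes that make neurons electrically excitable showed the highest median of all the classes examined. Of 33 voltage-gated channel genes tested (35 listed), 30 were higher and 1 was lower, and 27 were at least 2-fold higher, with a median log2 fold change of 1.64. Sh, the Shaker potassium channel (X:17924307-18063247), had 807, 1964, 1286, 1483 and 2510 CPM in male TRAP, against 124, 119, 84.4, 116 and 161 CPM in male total mRNA. The lowest TRAP library was thus about 5 times the highest total mRNA library, with a log2 fold change of 3.67 (SE 0.20, adjusted p = 1.9e-06). cac, the presynaptic calcium channel, had a log2 fold change of 3.50 (SE 0.18), and para, the sodium channel of the action potential, one of 3.30 (SE 0.17). Other potassium channels followed, with log2 fold changes of 2.81 for eag, 2.79 for slo and 2.74 for SK. The 1 member called lower, tipE, had a log2 fold change of -0.52, but this gene shares counted records with another gene and is uncertain: without those records it was at 1.20.

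Receptors that are opened by transmitters, or that couple to them through G proteins, were likewise higher. Among 34 transmitter-gated and metabotropic receptor genes tested (37 listed), 31 were higher, none was lower and the median was 1.30. nAChRalpha6, a subunit of the nicotinic acetylcholine receptor, had 297, 697, 499, 520 and 917 CPM in male TRAP, against 56.4, 57.5, 45.4, 51.0 and 66.6 CPM in male total mRNA (log2 fold change of 3.32 with an SE of 0.20, adjusted p = 2e-06). The nicotinic subunits, nAChRalpha7 and nAChRalpha5, reached 3.16 and 3.02, and the GABA receptor Rdl reached 2.76. The subunits that serve muscle at the neuromuscular junction lay at the low end, with GluRIIA at 0.23 and GluRIID at 0.43 (both not called, and both sharing records with another gene) and GluRIIC at 0.44 (called).

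Receptors for neuropeptides and biogenic amines gave 38 higher and 0 lower of 39 tested (54 listed), with a median of 1.26. Pdfr, the receptor of the clock neuropeptide PDF (X:2552206-2578640), had 33.0, 140, 212, 124 and 165 CPM in male TRAP, against 4.46, 5.68, 3.95, 4.35 and 5.04 CPM in male total mRNA. Its log2 fold change was 4.64 (SE 0.35, adjusted p = 5.2e-06), and its lowest TRAP level was in replicate 1. FMRFaR followed at 2.71, and the octopamine receptors Octbeta1R, Octalpha2R and Octbeta2R lay at 2.06, 2.02 and 1.99. SPR, the receptor that mediates the response of females to sex peptide, averaged 19.1 ± 5.2 CPM in male TRAP and 4.79 ± 1.1 CPM in male total mRNA (log2 fold change 1.97). The 1 member that did not pass the test was CCHa2-R, at -0.00.

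Genes for the synthesis and transport of transmitters rose across several transmitter types. The list also holds Ace and Ekar, and Ekar is a member of the list of transmitter-gated receptors too. Of 18 tested (21 listed), 17 were higher and 1 was lower, with a median of 1.21. Vmat, the vesicular transporter of monoamines, had 47.2, 70.4, 54.2, 40.0 and 45.5 CPM in male TRAP, against 13.1, 13.8, 11.8, 11.6 and 17.1 CPM in male total mRNA (log2 fold change of 1.91 with an SE of 0.13, adjusted p = 3.6e-06). Log2 fold changes were 1.78 for ChAT and 1.51 for VAChT, which mark cholinergic neurons and share records with each other, 1.14 for VGAT and 0.85 for Gad1, which mark GABAergic neurons, 0.59 for VGlut of glutamatergic neurons, and 1.31 for DAT and 0.96 for ple of dopaminergic neurons. The 1 member called lower was Tdc1, at -0.39, a call lost without lysate 1. Hdc, Trhn and Tdc2 were not tested because their counts were too low.

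Proteins of the synaptic vesicle and active zone followed the same direction, with 30 higher and 1 lower of 34 tested and a median of 1.07. Syt1, the calcium sensor of vesicle release, had 98.7, 195, 180, 156 and 220 CPM in male TRAP, against 32.0, 35.7, 35.3, 37.8 and 44.0 CPM in male total mRNA (log2 fold change of 2.16 with an SE of 0.13, adjusted p = 2.2e-06). The scaffold genes Rim and Nrx-1 reached 2.52 and 2.37, and brp, the core of the fly active zone, reached 1.68. At the low end of the list, shi, the dynamin gene, was at 0.29. Rop, EndoA and Synj were not called at 0.12, 0.08 and 0.01, and comt, the NSF ATPase, was lower at -0.45.

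Neuropeptide precursors were a mixed class. Only 22 of 50 precursors passed the filter, 14 were higher, 3 were lower and the median was 0.69. Without lysate 1, 16 were higher and 3 were lower. Akh, the adipokinetic hormone made by the corpora cardiaca, had 75.9, 123, 66.6, 36.7 and 51.9 CPM in male TRAP, against 2.01, 2.15, 2.83, 2.43 and 1.83 CPM in male total mRNA. It was the largest change of the class, with a log2 fold change of 4.85 (SE 0.24, adjusted p = 1.9e-06), and here TRAP replicate 1 was not the lowest library. Ptth, the brain peptide that stimulates ecdysone release, had 15.3, 31.6, 43.5, 30.6 and 28.0 CPM in male TRAP, against 7.87, 8.13, 5.32, 6.78 and 6.35 CPM in male total mRNA (log2 fold change of 2.05 with an SE of 0.23). Capa, Dh31, CCHa2 and Hug followed at 1.90, 1.85, 1.77 and 1.61. The members called lower were SIFa at -0.64, CCAP at -0.40 and AstCC at -0.38, and each of these calls was lost under at least 1 alternative setting.

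Genes for wiring were higher in male TRAP as well. Of 46 axon guidance genes, 41 were higher and 1 was lower, with a median of 1.03. NetB, a secreted Netrin, had 117, 164, 122, 126 and 148 CPM in male TRAP, against 27.6, 28.0, 19.6, 25.1 and 36.6 CPM in male total mRNA (log2 fold change of 2.32 with an SE of 0.12, adjusted p = 1.9e-06). Ten-a, Dscam2 and Mical had log2 fold changes of 2.30, 2.26 and 2.12. NetA, the second Netrin, and its receptor fra were not called, at 0.12 and -0.02.

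The dpr, DIP, beat and side genes code for immunoglobulin-domain surface proteins that pair with one another between neurons. Of 53 tested (54 listed), 50 were higher and 2 were lower, and the median was 1.17. DIP-alpha (X:3507245-3571649) had 70.1, 99.3, 103.8, 39.4 and 65.2 CPM in male TRAP, against 3.10, 2.15, 3.04, 3.14 and 3.23 CPM in male total mRNA, a log2 fold change of 4.58 (SE 0.24, adjusted p = 1.9e-06). No other member was above 2.31, the value of beat-VII. dpr17 went the other way. It had 430, 211, 200, 324 and 217 CPM in male TRAP, against 427, 382, 359, 389 and 427 CPM in male total mRNA (log2 fold change of -0.59 with an SE of 0.15, adjusted p = 0.0065), and TRAP replicate 1 was the only TRAP library not below every total mRNA library. The other member called lower, DIP-theta, shares records with another gene and is uncertain.

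Neural RNA-binding proteins had the second highest median, 1.42, with 19 higher and 0 lower of 22. brat, a translational repressor that limits neural stem cell growth, had 481, 634, 456, 468 and 527 CPM in male TRAP, against 98.2, 73.5, 54.3, 69.5 and 101 CPM in male total mRNA (log2 fold change of 2.72 with an SE of 0.15, adjusted p = 1.9e-06). shep and fne were the most abundant, with means of 4260 ± 633 and 3370 ± 507 CPM in TRAP and 841 ± 184 and 839 ± 154 CPM in total mRNA (n = 5 each). The members not called were orb2 at -0.01, Fmr1 at -0.02 and bru1 at -0.03.

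Axonal cytoskeleton and transport genes were less uniform, with 12 higher and 4 lower of 19 and a median of 0.51. shot, a large spectraplakin that links actin and microtubules, had 331, 603, 492, 427 and 676 CPM in male TRAP, against 93.4, 100, 95.3, 92.5 and 114 CPM in male total mRNA (log2 fold change of 2.31 with an SE of 0.13). The motor genes Khc and Klc were not called, at 0.09 and 0.04. The mitochondrial adaptors Miro and milt were lower, at -0.58 and -0.29.

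**Figure D2:**
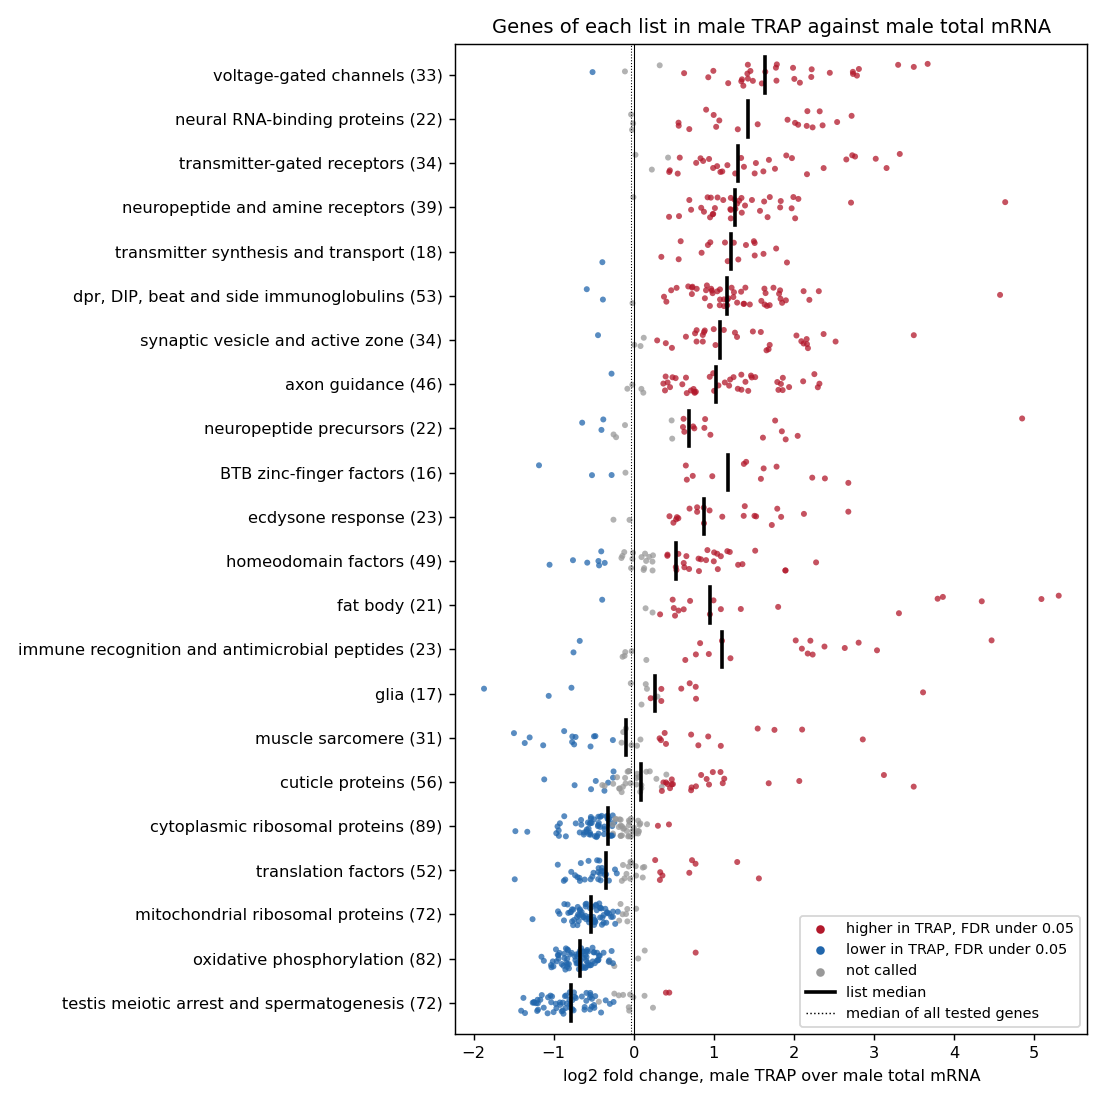
Log2 fold change of male TRAP over male total mRNA (x axis) for each tested member of 22 gene lists (y axis, number of genes tested in brackets), where a point is 1 gene colored by its call at an FDR under 0.05 and a bar is the list median. Neuronal lists lie to the right, with medians up to 1.64 for voltage-gated channels, and lists of translation, respiration and spermatogenesis lie to the left, with medians down to -0.78.

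Receptors of the sensory neurons were mostly below the filter. Of 215 odorant, gustatory, ionotropic and ppk receptor genes, 20 were tested, 12 were higher and 6 were lower. The co-receptor Ir25a averaged a log2 fold change of 1.43, and Gr32a, a gustatory receptor, was lower at -0.65. The genes Gr64b to Gr64e, each between 1.26 and 1.40, share records with their neighbors and are uncertain. Among 15 odorant-binding protein genes tested (51 listed), 6 were higher and 5 were lower, which is near the background. Obp99b was the exception in size, with 550, 1173, 2039, 1547 and 1832 CPM in male TRAP, against 40.5, 35.7, 27.7, 69.5 and 28.6 CPM in male total mRNA (log2 fold change of 5.10 with an SE of 0.37, adjusted p = 4.2e-06).

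Transcription factors were divided by family. Of 16 BTB zinc-finger genes, the family of fru, 12 were higher and 3 were lower, with a median of 1.18. br, an early ecdysone-response factor, led with 2.68, followed by mamo at 2.39 and fru, while lola, chinmo and psq lay at 1.78, 1.62 and 1.59. rib was the lowest, at -1.18. Homeodomain factors had 27 higher and 7 lower of 49 tested, with a median of 0.52. hth, a cofactor of Hox proteins, had 1042, 1867, 1300, 1495 and 2593 CPM in male TRAP, against 374, 328, 245, 303 and 406 CPM in male total mRNA (log2 fold change of 2.28 with an SE of 0.17). Among the Hox genes, Antp, Ubx, Abd-B and abd-A were higher at 1.89, 1.30, 1.00 and 0.90, whereas lab was lower at -0.36.

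Ecdysone pulses time metamorphosis, and 21 of 23 ecdysone-response genes were higher, with none lower and a median of 0.88. Eip93F, a factor that specifies late developmental programs, had 901, 1097, 1081, 942 and 1159 CPM in male TRAP, against 302, 222, 162, 218 and 311 CPM in male total mRNA (log2 fold change of 2.13 with an SE of 0.16, adjusted p = 5.2e-06). The receptor EcR was at 1.72, its partner usp at 0.79 and the coactivator tai at 1.79. Hr96 and Hr51 were the members not called.

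Within the sex hierarchy and the dosage compensation machinery, 9 of 17 tested genes were higher and 3 were lower, or 12 and 3 without lysate 1. dsx, the other sex-specifically spliced factor that acts with fru, had 14.7, 34.3, 26.1, 25.2 and 37.5 CPM in male TRAP, against 10.3, 14.3, 12.2, 11.8 and 13.1 CPM in male total mRNA (log2 fold change of 1.11 with an SE of 0.13, adjusted p = 6.6e-05). Sxl was higher at 2.24 and tra at 0.92, while tra2 was lower at -0.37. The 2 roX RNAs, non-coding parts of the complex that coats the male X, differed from each other. lncRNA:roX1 had 1164, 2273, 1755, 1838 and 2741 CPM in male TRAP, against 313, 280, 176, 259 and 384 CPM in male total mRNA (log2 fold change of 2.78 with an SE of 0.19), and lncRNA:roX2 was not called (log2 fold change 0.30, adjusted p = 0.066). The protein members msl-2 and msl-3 were not called, and mof was lower at -0.65.

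Of the circadian clock list, 13 genes were tested, with 7 higher and 3 lower. cwo, Pdp1 and tim were higher at 1.90, 1.61 and 1.07, whereas Clk and cry were lower at -1.03 and -0.46. Of 51 chromatin regulators, 17 (33.3%) were higher, near the background, and 11 (21.6%) were lower, a smaller share than over all genes. Without lysate 1 these counts were 20 and 11. Their median of 0.10 was -0.01 when library totals replaced TMM. Set1, HDAC4 and nej were the highest, at 1.64, 1.61 and 1.55, and the remodeler subunits Bap111 and Iswi were among the lowest, at -1.14 and -1.01.

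Genes of other tissues were examined because the whole pupa is the source of the lysate. Glial genes gave 8 higher and 3 lower of 17 tested (19 listed), with a median of 0.26, or 10 and 3 without lysate 1. repo, the defining factor of glia, had 8.97, 8.36, 9.16, 8.64 and 11.1 CPM in male TRAP, against 8.70, 9.03, 7.63, 8.39 and 9.37 CPM in male total mRNA. These ranges overlapped (log2 fold change 0.10, adjusted p = 0.40). Gs2, a glutamine synthetase, had 76.7, 278, 419, 249 and 307 CPM in male TRAP, against 15.8, 18.5, 20.8, 21.3 and 20.03 CPM in male total mRNA (log2 fold change of 3.61 with an SE of 0.27). Of the 5 glial markers, Gs2 was higher, alrm was lower and repo, moody and Eaat1 were not called, and their summed level was 115.4 to 473.9 CPM in TRAP and 66.7 to 79.5 CPM in total mRNA. None of these markers was at 0.

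Fat body genes were higher in male TRAP. Of 21 tested (25 listed), 18 were higher and 1 was lower, with a median of 0.95. Fbp1, the receptor for larval serum protein (3L:14094589-14098053), had 1079, 2414, 4042, 3323 and 3659 CPM in male TRAP, against 47.5, 77.6, 53.8, 171 and 79.9 CPM in male total mRNA (log2 fold change of 5.09 with an SE of 0.29, adjusted p = 1.9e-06). The storage proteins Lsp2, Lsp1alpha, Lsp1gamma and Lsp1beta lay at 4.35, 3.86, 3.80 and 3.31. Genes of lipid transport and storage changed less, with apolpp at 1.34, Lsd-1 at 0.95, FASN1 at 0.70 and Apoltp at 0.33, and bmm, a lipase, was lower at -0.39. All 4 fat body markers passed the test upward, and their summed level was 3664 to 10462 CPM in TRAP and 1052 to 1381 CPM in total mRNA. The part of fat body RNA in the values of other classes was not tested.

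Immune genes, many of which are made in the fat body, also rose. Of 23 tested (47 listed), 16 were higher and 2 were lower, with a median of 1.10. Def, which codes for the antimicrobial peptide Defensin, had 9.92, 37.9, 51.2, 25.9 and 36.3 CPM in male TRAP, against 1.34, 2.24, 0.81, 1.39 and 0.83 CPM in male total mRNA (log2 fold change of 4.47 with an SE of 0.35). CecC, Drs, CecB and Dro were at 2.81, 2.64, 2.38 and 2.02, and the recognition proteins PGRP-SD and PGRP-SA at 2.23 and 1.21. In lysate 1 the median log2 ratio of this list was 0.38, against 1.17 to 1.32 in the other 4 lysates.

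Muscle genes were called in both directions at shares near the background. Of 31 tested, 12 (38.7%) were higher and 13 (41.9%) were lower, with a median of -0.10. sls, which codes for the giant elastic protein of the sarcomere (3L:2039681-2115611), had 2204, 5692, 4066, 4132 and 6928 CPM in male TRAP, against 539, 671, 537, 550 and 685 CPM in male total mRNA (log2 fold change of 2.86 with an SE of 0.18, adjusted p = 2.3e-06). Act88F, the actin of the flight muscle, had 341, 426, 605, 412 and 489 CPM in male TRAP, against 939, 1211, 1266, 1203 and 1146 CPM in male total mRNA (log2 fold change of -1.36 with an SE of 0.11, adjusted p = 6.6e-06). Mhc, the muscle myosin heavy chain, was not called, at 1193, 1745, 1885, 1556 and 2145 CPM in TRAP and 1591, 1696, 1837, 1707 and 1713 CPM in total mRNA. The 5 members with over 10000 bases of counted exon, sls, bt, Msp300, Strn-Mlck and Zasp52, were all higher, with a median of 1.76. Of the 26 shorter members, 7 were higher and 13 were lower, with a median of -0.21. Act57B, the lowest member at -1.50, and Msp300 share records with another gene and are uncertain.

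Hemocyte and basement membrane genes gave 8 higher (40%) and 4 lower (20%) of 20 tested. The share higher was near the background, and the share lower was smaller than over all genes. The scavenger receptors NimC2 and crq were higher at 1.996 and 1.51, and trol, the perlecan gene, at 1.64, whereas the laminin genes LanA and LanB2 were lower at -0.33 and -0.34. Hemocyte markers were low, with a summed level of 85.0 to 131 CPM in TRAP and 65.2 to 75.9 CPM in total mRNA, and eater did not pass the filter. Cuticle protein genes gave 22 higher (39.3%, near the background) and 8 lower (14.3%, a smaller share than over all genes) of 56 tested (131 listed). Their median of 0.10 was -0.01 with library totals only. Cpr72Ea and Cpr49Ac led at 3.50 and 3.12. The summed level of the tested cuticle genes was 32289 to 34823 CPM in TRAP and 31731 to 35646 CPM in total mRNA, and these ranges overlapped.

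Genes of the testis had the lowest median of the 43 lists. Larger shares were lower among oxidative phosphorylation genes (93.9%) and mitochondrial ribosomal protein genes (90.3%). Of 72 spermatogenesis genes tested (74 listed), 60 were lower and 2 were higher, 20 were at least 2-fold lower and the median log2 fold change was -0.78. S-Lap1, a sperm leucyl aminopeptidase, had 3978, 1699, 1688, 2489 and 1455 CPM in male TRAP, against 4958, 3933, 3933, 3932 and 3890 CPM in male total mRNA (log2 fold change of -0.97 with an SE of 0.16, adjusted p = 0.0005). TRAP replicate 1 was the only TRAP library within the range of total mRNA. betaTub85D, the tubulin of the sperm tail, had 731, 401, 447, 598 and 391 CPM in male TRAP, against 1094, 992, 1010, 1053 and 977 CPM in male total mRNA, with no overlap (log2 fold change of -1.04 with an SE of 0.13, adjusted p = 9.1e-05). The lowest member was twe, a meiotic Cdc25 phosphatase, at -1.41.

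The summed level of the spermatogenesis list was highest in TRAP replicate 1 among the TRAP libraries. It was 15855 to 38781 CPM in male TRAP, with a median of 17303 CPM, and 32383 to 42041 CPM in male total mRNA. The median log2 ratio within a lysate was -0.31 for lysate 1, -1.01 for lysate 2, -0.90 for lysate 3, -0.51 for lysate 5 and -1.11 for lysate 6. Without lysate 1, 63 of 72 members were lower and 2 were higher, and the median was -0.92. dj, a gene of the elongating sperm tail, was not called, at 3405, 838, 605, 1741 and 574 CPM in TRAP and 1482, 856, 659, 874 and 1031 CPM in total mRNA, and its 2 highest TRAP libraries were those of lysates 1 and 5. Genes of the germline stem cell and piRNA pathway were lower too, at 11 of 17 tested with 4 higher, and krimp was the lowest at -1.38 and tud the highest at 0.82. The 10 Y-linked genes tested gave 2 higher and 3 lower.

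**Figure D3:**
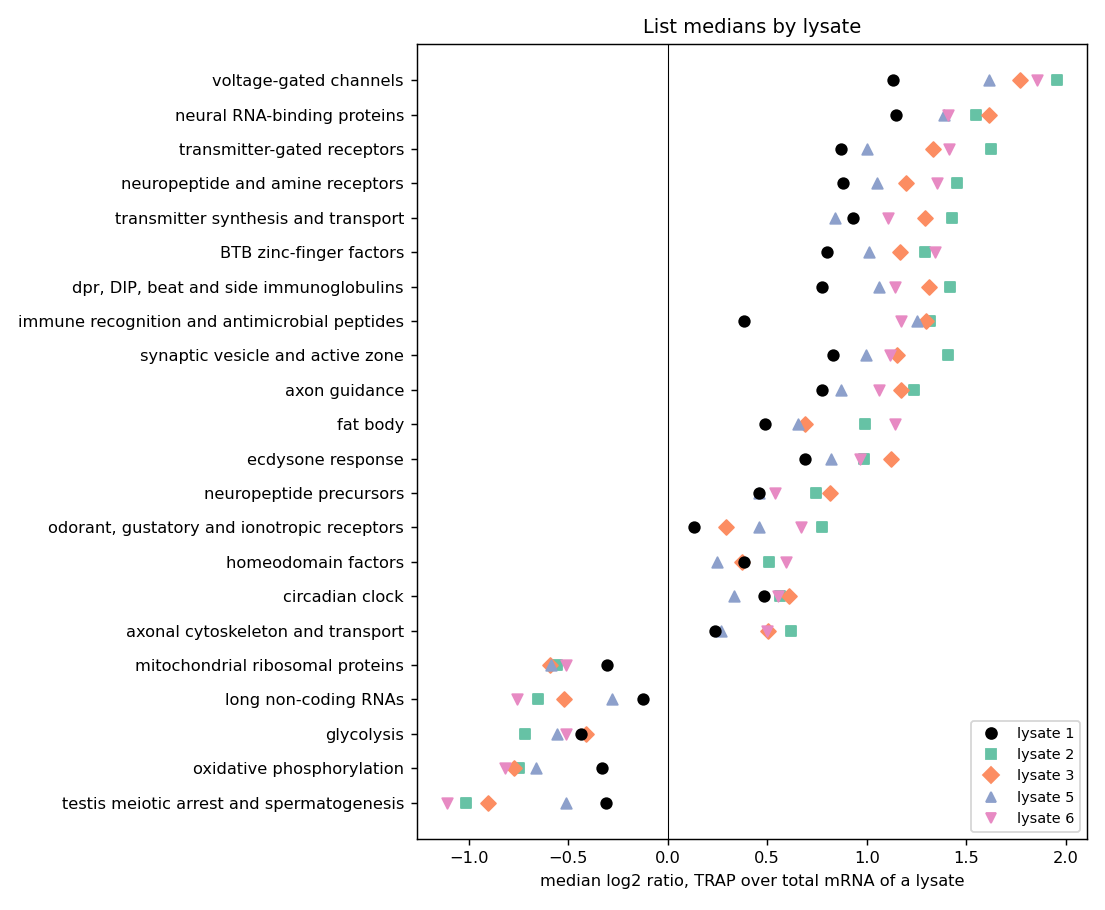
Median log2 ratio of TRAP over total mRNA within each lysate (x axis) for the 22 lists with a median log2 fold change of at least 0.5 in size (y axis), where each symbol is 1 of the 5 lysates. The ratio was the smallest in size in lysate 1 for 17 of the 22 lists.

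Housekeeping classes were lower in a more even way. Of 82 oxidative phosphorylation genes, 77 were lower and 1 was higher, with a median of -0.67. ATPsynE, a subunit of the ATP synthase, had 203, 150, 146, 157 and 132 CPM in male TRAP, against 333, 309, 329, 315 and 304 CPM in male total mRNA (log2 fold change of -1.03 with an SE of 0.10, adjusted p = 2.6e-05). The 1 member called higher, ND-49 of complex I, had 113, 168, 141, 127 and 176 CPM in male TRAP, against 80.2, 82.8, 84.4, 85.5 and 86.5 CPM in male total mRNA (log2 fold change of 0.77 with an SE of 0.11). Of 13 glycolysis genes, 9 were lower and 1, Hex-A, was higher at 0.92, with a median of -0.57.

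The machinery of translation shifted in the same direction. Mitochondrial ribosomal protein genes gave 65 lower and 0 higher of 72, with a median of -0.53. mRpL55, the lowest, had 15.9, 10.9, 11.5, 12.0 and 12.2 CPM in male TRAP, against 25.9, 29.5, 34.5, 33.2 and 27.0 CPM in male total mRNA (log2 fold change of -1.26 with an SE of 0.13). Cytoplasmic ribosomal protein genes gave 55 lower and 2 higher of 89, with a median of -0.32. Among them, RpS29 had 828, 624, 825, 814 and 719 CPM in male TRAP, against 1372, 1355, 1390, 1463 and 1247 CPM in male total mRNA (log2 fold change of -0.85 with an SE of 0.10), while RpL5 had 2394, 1946, 2270, 2876 and 2541 CPM in male TRAP, against 2210, 1867, 1893, 1939 and 1794 CPM in male total mRNA (log2 fold change of 0.30 with an SE of 0.11, adjusted p = 0.031), a call that was lost with library totals only or upper-quartile factors. The paralogs RpL22-like and RpS19b were the lowest, at -1.48 and -1.33.

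Translation factors gave 30 lower and 9 higher of 52, with a median of -0.35. eIF4H2 had 128, 74.5, 83.5, 106 and 72.5 CPM in male TRAP, against 257, 256, 250, 249 and 257 CPM in male total mRNA (log2 fold change of -1.49 with an SE of 0.14), whereas its paralog eIF4H1 was higher at 1.29. The cap-binding protein genes eIF4E7 and eIF4E5 were lower at -0.95 and -0.86. Smaller shifts were seen in the proteasome (15 lower and 5 higher of 31), the vacuolar ATPase (15 lower and 4 higher of 28) and the tRNA synthetases (13 lower and 10 higher of 35), the last of which is near the background.

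Cell cycle genes were lower for 24 and higher for 6 of 44 tested. aurA, a mitotic kinase, had 12.1, 12.3, 12.9, 12.3 and 11.1 CPM in male TRAP, against 35.1, 37.97, 35.9, 39.2 and 39.9 CPM in male total mRNA (log2 fold change of -1.63 with an SE of 0.09, adjusted p = 1.9e-06), and here TRAP replicate 1 lay within the other TRAP libraries. polo, fzy and CycB were at -1.10, -1.09 and -1.04. The members called higher included stg, another Cdc25 phosphatase, at 1.56 and E2f1 at 0.93.

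By number of genes, most long non-coding RNAs were lower. Of 590 tested (2388 listed), 339 were lower and 96 were higher, with a median of -0.54 (101 higher and 362 lower of 555 without lysate 1). At least 2-fold, 60 were higher and 63 were lower. The summed level of the list went the other way, at 26427 to 35651 CPM in male TRAP and 15733 to 21447 CPM in male total mRNA. Of the 590, 361 fell among the shortest genes defined below.

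Exonic length moved with the fold change across all genes. The median length counted was 3911 bases for genes at least 2-fold higher, 1298 bases for genes at least 2-fold lower and 1822 bases for the other tested genes. By quintiles of length, the median log2 fold change was -0.49 in the shortest quintile (34 to 1006 bases), -0.25, -0.06 and 0.18 in the next quintiles, and 0.60 in the longest quintile (3850 to 71820 bases). Most of the neuronal classes are long genes, and 28 of the 33 voltage-gated channel genes fell in the longest quintile, where their median was 1.78 beside 0.60 for all genes of that quintile. For transmitter-gated receptors the medians were 1.76 for the 19 members in the longest quintile and 0.87 for the 15 others, beside 0.60 and -0.17 for all genes. Of the short classes, oxidative phosphorylation had 55 of 82 members in the shortest quintile, but so did immune genes with 16 of 23, whose median was 1.10. The part of length in these values was not tested.

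**Figure D4:**
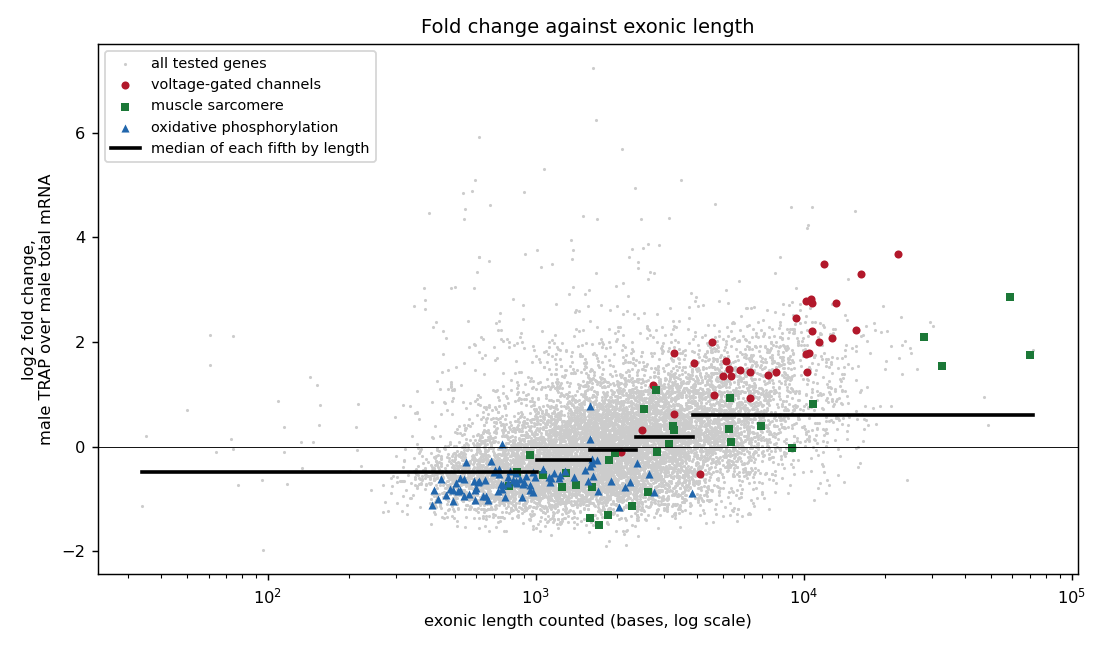
Log2 fold change of male TRAP over male total mRNA (y axis) against the exonic length counted (x axis, bases, log scale) for all 11537 tested genes (grey), with voltage-gated channels (circles), muscle sarcomere genes (squares) and oxidative phosphorylation genes (triangles), and the median of each quintile of genes by length as a bar. The medians of the quintiles run upward with length, between -0.49 and 0.60, and the muscle genes over 10000 bases lie above 0.

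The largest increases came from several classes. The 10 highest by the naming rule were CG14118 (7.23), CG5171 (6.24), CG34166 (5.92), Jhe (5.68), Obp99b (5.10), Fbp1 (5.09), CG12239 (4.94), TotA (4.88), rpr (4.86) and Akh (4.85), as log2 fold changes. CG14118 (3L:12892658-12894758) had 180, 829, 1333, 738 and 932 CPM in male TRAP, against 3.43, 4.43, 3.26, 11.6 and 2.74 CPM in male total mRNA (SE 0.51, adjusted p = 3.6e-06). Jhe, the esterase that degrades juvenile hormone, had 35.0, 80.7, 120, 84.7 and 103.6 CPM in male TRAP, against 1.20, 1.59, 0.99, 3.33 and 0.93 CPM in male total mRNA (SE 0.34). TotA, a secreted stress-response protein, averaged 111 ± 49 CPM in TRAP and 3.51 ± 1.6 CPM in total mRNA (n = 5 each). rpr, which starts programmed cell death, had 20.4, 83.2, 127, 80.9 and 94.8 CPM in male TRAP, against 2.73, 1.63, 1.84, 2.72 and 3.19 CPM in male total mRNA (SE 0.39, adjusted p = 6.6e-06). The naming rule itself required every TRAP library of these genes to be above every total mRNA library. TRAP replicate 1 was the lowest TRAP library in 8 of the 10, all but Akh and CG12239.

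**Figure D5:**
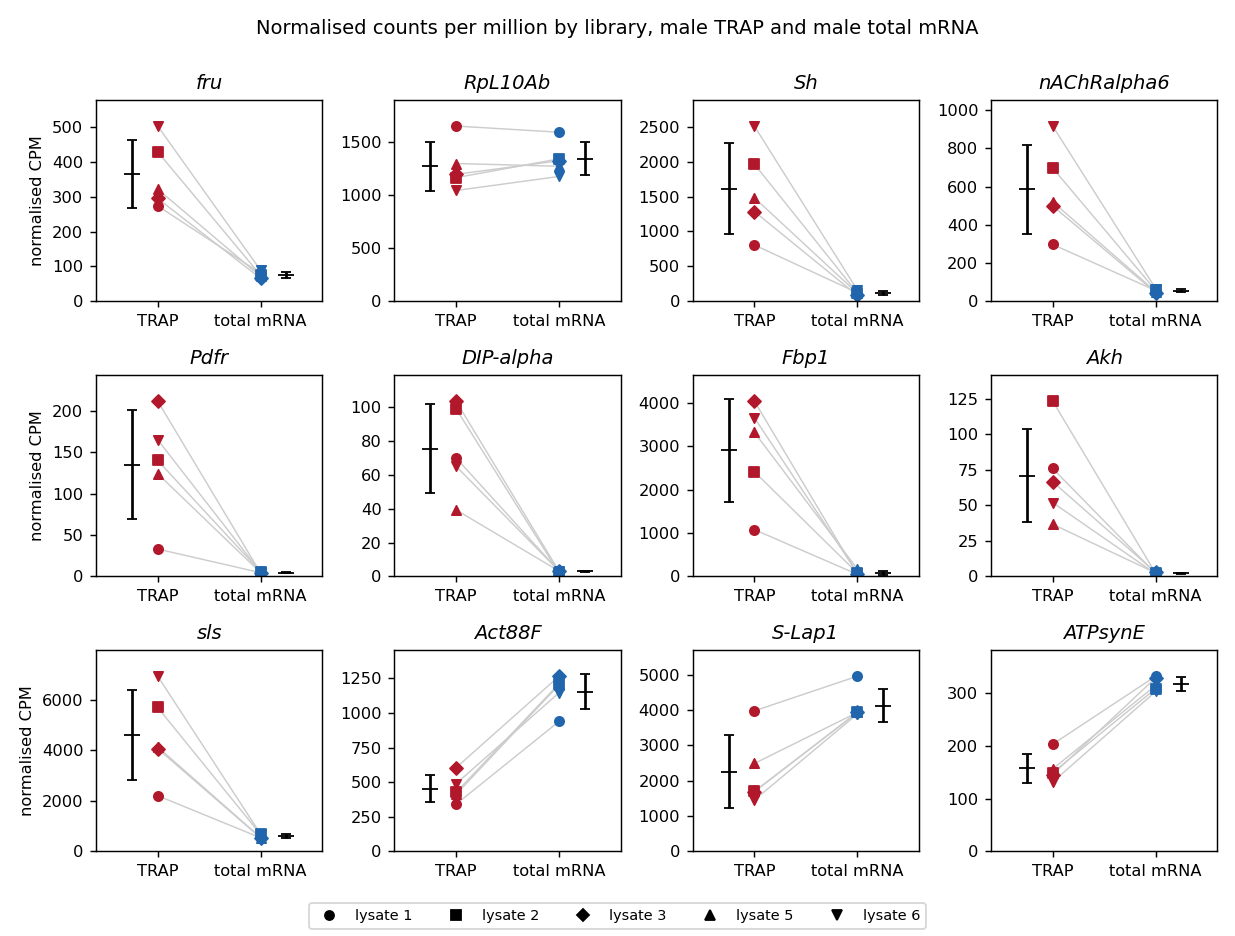
Normalised CPM (y axis, starting at 0) of 12 genes in male TRAP (left in each panel) and male total mRNA (right), where each symbol is 1 lysate, grey lines join the 2 libraries of a lysate and the bars beside them are mean and SD of 5 libraries. fru, Sh, nAChRalpha6, Pdfr, DIP-alpha, Fbp1, Akh and sls are higher in every TRAP library, Act88F and ATPsynE are lower in every one, and RpL10Ab and S-Lap1 overlap.

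The 10 lowest by the same rule were CG18131 (-1.90), sofe (-1.70), CG3698 (-1.69), CG5062 (-1.66), aurA (-1.63), CG11125 (-1.62), lncRNA:CR44903 (-1.61), CG10919 (-1.61), corolla (-1.61) and CG16894 (-1.61). CG18131 had 34.04, 21.6, 25.8, 29.2 and 21.0 CPM in male TRAP, against 84.8, 99.9, 96.1, 100 and 102 CPM in male total mRNA (SE 0.14, adjusted p = 4.8e-06). corolla, a component of the synaptonemal complex of meiotic chromosomes, had 13.1, 10.6, 12.3, 15.9 and 11.3 CPM in male TRAP, against 34.8, 39.7, 36.9, 41.3 and 38.7 CPM in male total mRNA (SE 0.10). The naming rule itself required that the groups not overlap in these genes. The spread among TRAP libraries differed between them. CG10919 ranged from 33.5 to 88.0 CPM in male TRAP, with the highest level in replicate 1, and aurA from 11.1 to 12.9 CPM.

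The same comparison was available in females, with 4 TRAP and 4 total mRNA libraries. The median difference between the sexes over all genes, male minus female log2 fold change, was 0.46 with TMM. It was 0.01 when RLE size factors replaced TMM, and also 0.01 under TMM without male lysate 6. Each class median is therefore given relative to the median of all genes of that sex. Voltage-gated channels were 1.66 above it in males and 1.36 above it in females, transmitter-gated receptors 1.32 and 1.10, and neural RNA-binding proteins 1.44 and 1.27. Fat body genes were 0.84 above it in males and 1.04 in females, and immune genes 1.22 and 2.02. Oxidative phosphorylation genes were -0.65 from it in males and -1.06 in females.

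The spermatogenesis list was at -0.76 from the median of all genes in males and at -0.78 in females, although females have no testis. A gene entered this comparison if it passed the filter in the libraries of either sex, so list members can have low counts in females. The lists can therefore differ from those above, with 636 long non-coding RNAs here against 590 in the male test. Female levels of these genes are not given here. Some classes had opposite signs, with long non-coding RNAs at -0.47 in males and 0.15 in females, germline stem cell and piRNA genes at -0.37 and 0.04, cell cycle genes at -0.33 and 0.10, and the proteasome at -0.19 and 0.13. Differences between the sexes in these class medians were not tested.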

How the data were processed

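RNA-seq libraries were made from poly(A)+ RNA with a directional kit and sequenced as single-end reads. The submitters' processing notes name STAR 2.7.2a, SAMtools 1.2, featureCounts and edgeR, with the build given as dm6 or BDGP6 and without the role of each tool. The values deposited by the authors are raw counts per exon record with no normalization. The deposited table of RPM was not used. The 87508 records belong to 17753 genes, of which 17625 had a symbol in the reference annotation. Records nested in a record of the same strand never held more counts than it (0 of 2797), but 442 of 1253 nested in one of the opposite strand did, so only overlaps on the same strand are named as uncertain. Counts were summed over 69946 records chosen longest first so that none overlap within a gene.

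A gene was tested if it exceeded 2 CPM in 60% of the 10 male libraries or more (6 libraries, so at least 1 of each group). Tests used edgeR 4.0.16 in R 4.3.3 (TMM, quasi-likelihood F test, replicate number as a block, Benjamini-Hochberg FDR under 0.05). SE was the log2 fold change over the square root of F. The test was also run on simulated counts that held no lysate effect, and nothing above rests on that run. Same-numbered libraries come from the same lysate, and their deviations from the group means correlated at 0.27 to 0.59. Libraries of unlike numbers did so at -0.52 to 0.31. TRAP replicate 5 correlated more with total mRNA replicate 1 (0.31) than with total mRNA replicate 5 (0.27). Nothing in the labels says how replicates were collected beyond their numbers, so p-values measure the spread between these pools.

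The 43 gene lists were written from gene symbols and general knowledge and hold 5073 genes, of which 1898 were tested and 379 had no count in any male library. The members and lists were chosen with earlier results of these data known. The genes with values by library are the highest and lowest members of lists that averaged 5 CPM or more in TRAP or in total mRNA, and markers or other members picked after their values were seen. The 10 highest and 10 lowest of all genes were taken among called genes that reached 5 CPM on average in their higher group, showed no overlap between groups and had less than 50% of their records overlapping another gene. Alternatives were other scalings, filters, thresholds and ways of summing records, DESeq2 1.42.0, no block, and leaving out each lysate or library.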

Additional observations from a re-analysis of the deposited data

Results flagged for a closer look

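Of 135 groups of 5 values examined (each named gene by library in a group, and each list by lysate), 9 had 1 value far apart from the other 4. Chance alone gives about 1 in 20, so the number flagged was near that share and the values below are a description. Replicate 5 of male total mRNA was high in 3 genes, at 170.7 CPM for Fbp1, 3.333 CPM for Jhe and 11.63 CPM for CG14118. DIP-alpha was low in total mRNA replicate 2, at 2.15 CPM, and S-Lap1 was high in total mRNA replicate 1, at 4958 CPM. mRpL55 was high in TRAP replicate 1, at 15.93 CPM. The median log2 ratio of lysate 1 stood apart for immune genes, at 0.3831, and for mitochondrial ribosomal proteins, at -0.307. For the 3 driver and transgene loci that of lysate 2 stood apart, at 0.745.

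Of the 46 genes given by library, 29 had a log2 fold change that differed between males and females in an interaction test (edgeR with TMM, adjusted p under 0.05), 10 did so with RLE size factors and 6 with TMM when male lysate 6 was left out. The same 6 passed in all of these settings with 1 sign. Their male minus female differences were 3.95 for Akh, 1.193 for NetB, -2.38 for Ptth, -1.453 for aurA, -1.298 for twe and -0.7568 for dpr17. Ptth was at 2.06 in males and 4.44 in females, and Akh at 4.86 in males and 0.91 in females.

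The other 23 differences were lost with RLE size factors or without male lysate 6. They were all positive with TMM, where the median difference of all genes was 0.46, against 0.01 in either of those settings. In neuronal genes they were 1.053 for Sh, 0.9597 for cac, 0.8853 for para, 1.059 for nAChRalpha6, 0.6532 for Syt1, 0.7371 for Vmat, 0.8714 for elav, 1.101 for brat and 1.041 for shot. In transcription factors they were 0.8932 for fru, 1.055 for dsx, 1.222 for hth, 1.201 for Eip93F and 0.8944 for repo. In the remaining genes they were 0.9118 for sls, 0.7855 for Mhc, 0.6062 for Act88F, 1.414 for dj, 0.5238 for RpL10Ab, 0.7119 for RpL5, 0.8672 for mRpL55, 0.7525 for ATPsynE and 0.8995 for ND-49.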

How the results depend on the processing

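Without the replicate block, which ignores the pairing by lysate, 4000 genes were higher and 3885 lower, and 1575 and 570 were at least 2-fold higher and lower. The number at least 2-fold lower depended most on the choices made. It was 1044 with library totals only and 1051 with no filter on low counts, which also gave 2477 genes at least 2-fold higher. Leaving out 1 lysate gave 478 (without lysate 6) to 1047 (without lysate 1), and leaving out 1 library without the block gave 396 to 1090, with 1090 without TRAP replicate 1, 401 without TRAP replicate 2, 435 without TRAP replicate 3 and 396 without TRAP replicate 6. Of 11834 genes, 6278 had a sex difference in the TRAP ratio, 5355 of them higher in males. With RLE size factors it was 2419, of which 609 were higher in males, and leaving out 1 lysate gave 1720 to 6662. The 1720, of which 270 were higher in males, were without male lysate 6, so both the count and its main direction rest on the scaling and on that lysate. Without records that overlap another gene, tipE was at 1.20 and DIP-theta at 0.89, so both were higher instead of lower. Of the 236 genes named in the text or by the rule, 18 lost their call and 9 gained one under at least 1 of 25 alternatives, and no others reversed. Those printed with a call that was lost in at least 1 setting include SIFa, CCAP, AstCC, Tdc1, RpL5, shi, milt, LanA, LanB2, lab, cry, VGlut and dpr17. The causes were not tested beyond the construction of each setting. Across the alternatives, 38 of 43 list medians kept their sign. The exceptions were odorant-binding proteins, chromatin regulators, muscle, cuticle proteins and histones. Low counts limit the odorant, gustatory and ionotropic receptors, the neuropeptide precursors and the non-coding RNAs, most of which did not pass the filter.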

Other observations

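Genes of programmed cell death were examined after the values of rpr were seen, so their list is a description. Of 15 genes, 12 were tested, 9 were higher and 2 were lower in male TRAP, with a median log2 fold change of 1.01. hid, which acts beside rpr in starting cell death, averaged 206 ± 70 CPM in male TRAP and 30.8 ± 6.2 CPM in male total mRNA (log2 fold change 2.68, n = 5 each). The caspase genes Dcp-1, Dredd and Dronc were at 2.71, 1.69 and 1.09, and Dredd shares records with another gene and is uncertain. The inhibitor Diap1 was not called, at 0.01, and Diap2 was lower, at -0.38. The other member called lower was Debcl, at -0.25, while Buffy was higher, at 1.24.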
